A study of Schizosaccharomyces pombe with 8 samples.

Results

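The early response of fission yeast P cells to M-factor was measured on 1 of the 8 arrays of the series, the array that compared RNA after 2 h of M-factor with RNA of untreated cells. It was chosen by its label and by no measured value. It gave a ratio for 4632 of the 4752 genes that could be named. The P cells were h+ and cyr1-, with a deletion of silent mating type genes marked by LEU2, and grew at 30 °C in MSL minimal medium with nitrogen until synthetic M-factor was added to 1 μg/ml. The same strain was sampled at 4 h and 6 h. M cells, which were h- cyr1- sxa2- (spelled sax2 in the labels) with the same kind of deletion, received P-factor at 1 μg/ml for 2, 4 and 6 h. Each treated RNA was set against 0 h RNA of its own mating type, so the 3 M-factor arrays share a reference with each other and none with the P-factor arrays. The remaining arrays compared M cells directly with P cells, untreated and after 6 h. Treated RNA carried Cy5 on the M-factor 2 h array and Cy3 on the 5 other time course arrays. There was 1 array for each condition, so a ratio at 2 h has no replicate, and the 2 spots that most genes had on the slide are technical repeats.

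Fission yeast has a pair of mating types. P cells secrete P-factor and carry Map3, the receptor for the M-factor made by M cells. The receptor acts through a G protein and the Byr2, Byr1 and Spk1 kinase cascade, which activates the HMG-box transcription factor Ste11 and so prepares cells for fusion and meiosis. This normally requires starvation; loss of cyr1, which encodes adenylate cyclase, removes that requirement, and every culture here lacked cyr1. The ratio of cyr1 itself is therefore not interpreted. A ratio is given throughout as log2 of treated over untreated, on which 1 is 2-fold.

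The identity of the cells was checked against marker genes. On the untreated array of M over P cells, map2 (P-factor precursor) had a log2 ratio of -2.94 and map3 of -1.23, while the M cell genes mam1 (M-factor exporter) and mam2 (P-factor receptor) had 2.15 and 1.65. The labels and these markers therefore pointed the same way, although map4 (the P cell agglutinin) at 0.07 and mam3 (its M cell counterpart) at 0.47 barely separated the cells. The ratio of sxa2 (P-factor protease), at 0.23, is not interpreted as a marker, since the gene was inactivated in the M cells. The M-factor precursor genes mfm1, mfm2 and mfm3 had no spot with 1 gene name, and the paper states that its arrays lacked them. At 2 h of M-factor, map2 had spots of 3.61 and 2.63 and map4 had spots of 1.10 and 1.84, whereas mam2 at -0.25 and sxa2 at -0.23 were within 2-fold, and map3 was at -0.35.

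After 2 h of M-factor 443 of 4632 genes (9.56%) were at least 2-fold up and 502 (10.8%) at least 2-fold down, together 945 (20.4%). At least 4-fold were 68 genes up and 89 down, and at least 8-fold were 16 up and 22 down. The median over all genes was 0.03. For comparison, 447 of 4646 genes (9.62%) were up and 501 (10.8%) down at 4 h, 385 of 4658 (8.27%) up and 387 (8.31%) down at 6 h, and 225 of 4129 (5.45%) up and 202 (4.89%) down after 2 h of P-factor. The counts up and down at 2 h and 4 h of M-factor were thus nearly equal. Near the threshold the genes just inside were SPBC409.18 (1.0002) and mug153 (1.0006) for induction, with rps2802 (0.9998) and ess1 (0.998) just outside. For repression arv1 (-1.0016) and SPBC557.02c (-1.0008) were just inside, and pdx3 (-0.9988) and myr1 (-0.9971) just outside. These differences are far below the spot error.

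The spots of a gene gave the only measure of error on the array. Over 4407 genes with both spots the spots correlated with Pearson's r of 0.724 and Spearman's rho of 0.747, a description across genes on the same slide. The median gap between spots was 0.343, the median SD of a gene's spots was 0.243, and 506 genes (11.5%) had spots more than 1 apart. Induction was better repeated between spots than repression. Of 415 induced genes with at least 2 spots, every spot was past 2-fold in 278 (67.0%), against 237 of 471 repressed genes (50.3%); a further 28 induced and 31 repressed genes rested on 1 spot. The spots had opposite signs in 2 of the 415 and 5 of the 471 genes.

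**Figure D1:**
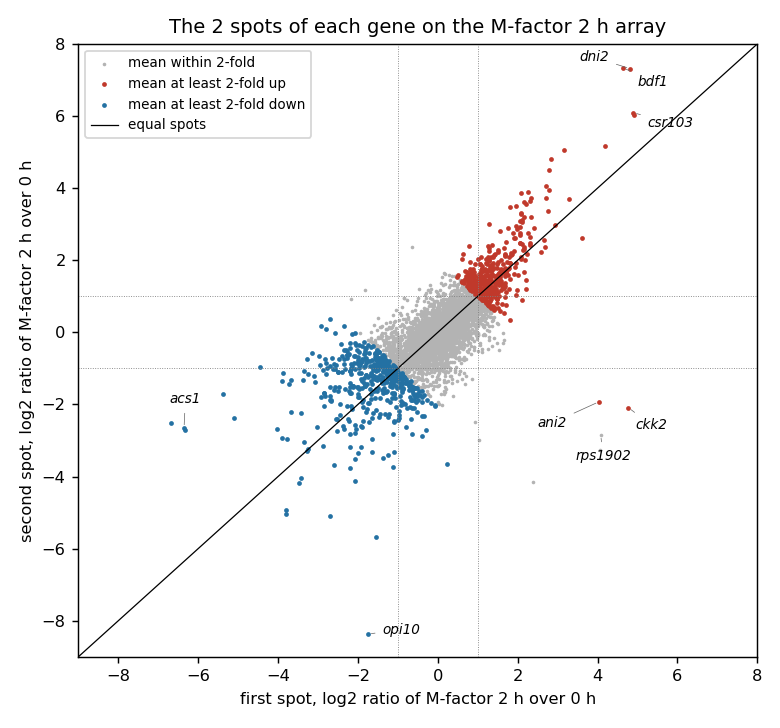
Log2 ratio of M-factor 2 h over 0 h on the first spot (x axis) against the second spot (y axis) of each of 4407 genes; red and blue points are genes whose mean is at least 2-fold up or down, grey points the rest, the solid line marks equal spots and dotted lines mark 2-fold. The red points lie mostly above the line at high ratios, as for dni2 (4.82 and 7.32), while ckk2 and ani2 lie at the lower right with a high first and a negative second spot.

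The spots also differed systematically. The second spot was the higher one in 283 of the 415 induced genes (68.2%) and in 57 of 64 genes induced at least 4-fold, where the second spot exceeded the first by a median of 0.858. Over all genes the share was 49.6%, and among repressed genes it was 57.5%. The size of the strongest inductions therefore depended on the spot used. The same share among induced genes was 25.5% at 4 h and 35.6% at 6 h of M-factor, and 47.9%, 68.2% and 58.7% at 2, 4 and 6 h of P-factor, so that the direction was not the same on each slide; the cause was not tested.

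The highest ratios included those of the cell fusion genes dni2, dni1 and fus1. The highest was dni2 (SPBC4.01), a claudin-like membrane protein needed for cell fusion, with spots of 4.82 and 7.32 and a mean of 6.07 (67.1-fold). Next came bdf1 (spots 4.63 and 7.35), which encodes a bromodomain protein. The gap of 2.72 between its spots shows that its order relative to dni2 is not resolved. The neighbours in the order, csr103 (4.89 and 6.10) and SPAC1565.03 (4.90 and 6.03), had nearly the same ratio, and dni1, which encodes a partner of Dni2, followed with 4.18 and 5.18. All 5 had a log2 ratio above 4 on each spot.

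The other 10 of the 15 highest genes with every spot past 2-fold lay between 3.07 and 4.11. They were fis1 (4.11), num1 (3.82), mug8 (3.64), SPBC146.02 (spots 3.29 and 3.71), wtf25 (3.39), rec25 (3.37), fus1 (3.23), map2 (3.12), meu26 (3.07) and mug37 (3.07). Num1 anchors dynein at the cell cortex, Rec25 is a component of the linear elements on meiotic chromosomes, and Fus1 is the formin that builds the actin focus at the fusion site. Apart from csr103, SPAC1565.03 and map2, these genes had P-factor 2 h ratios of at least 1.53. Their M-factor 4 h ratios were lower than at 2 h for dni1 (2.48), num1 (1.61), mug8 (2.39), wtf25 (1.40), rec25 (1.73), fus1 (2.55) and meu26 (0.60), while their 6 h ratios lay between 2.95 and 5.12. Thus the same genes were lower on the middle array of the course and high on the outer arrays; the cause was not tested.

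Ste11 binds a short element known as the TR box. The study lists for its induced genes the best match to a matrix of such sites, and the letters below are those matches with 4 bases on each side, the 10 bases of the match in capitals and written as the study lists them, without strand or position, which were not used here. The sites of all 14 listed genes among the 15 highest are shown in the order of their ratios, since these carry the largest ratios of the array.
dni2: aaaaTTTCTTTGTTtcaa
bdf1: cttgAACAAAGTAAacaa
csr103: gttgAACACAGAAAtaat
SPAC1565.03: agatTCTTTTTGTTtgaa
dni1: cgggAACAAAGAAAacac
fis1: attcCTTCTCTGTTtcaa
num1: aaaaGACAAAGAGAgttg
mug8: gcttTCTCTTTGTTcgaa
SPBC146.02: catgAACAAAGAAAcctt
wtf25: tcctAATCTTTGTTatca
rec25: ttatTCTCTTTGGTtaca
fus1: accgAACAAAGAAAgtta
map2: caagTTCCTTTTTTtttc
mug37: aattAACAAAAAATttca

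The 8 letters AACAAAGA, or TCTTTGTT on the other strand, were present in the sites of dni2, dni1, mug8, SPBC146.02, wtf25 and fus1, and so in 6 of the 14, and not in those of bdf1, csr103, SPAC1565.03, fis1, num1, rec25, map2 and mug37. Over the 154 listed genes that matched a spot 48 held them, and the median ratio at 2 h was 1.78 with the letters and 1.81 without. These medians cannot show whether the sites go with the size of the early ratio, because the list was itself selected by induction. The study chose the listed genes on these arrays, and 136 of the 153 with a 2 h value were at least 2-fold up, which is therefore no independent result. The share of all promoters with the letters was not analysed here.

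Among the genes of the pheromone pathway those of the kinases Spk1 and Byr2, of regulators and of the transcription factor were past 2-fold at 2 h. Of 22 measured signalling genes 6 were at least 2-fold up and 0 down, with a median of 0.35. Over all genes 9.56% were up and 10.8% down at 2 h, and the counts of the lists below stand beside these shares. The MAP kinase gene spk1 had spots of 2.93 and 2.97, rgs1, which encodes a negative regulator of the G protein, 2.66 and 2.58, and ste11 1.68 and 1.65. The spots of these 3 genes were less than 0.1 apart. Also past 2-fold were ste7 (2.45), ste4 (1.87), an adaptor of Byr2, and byr2 (1.11), while the G alpha gene gpa1 (0.44), byr1 (0.40) and ras1 (0.88) were not. The receptor gene map3 was at -0.35, -0.61 and -0.09 at 2, 4 and 6 h of M-factor. M cells over P cells gave -1.23 for it untreated and -3.53 after 6 h of pheromone. The paper reports map3 as induced by M-factor selectively, on arrays and by real-time PCR of nitrogen-starved cyr1+ cells. It also found a pheromone-induced transcript from the map3 strand by strand-specific RT-PCR. The time course values given here were not reconciled with these results. Of 8 genes for pheromone production and processing 3 were up, map2 (3.12), mam4 (1.51), which encodes the M-factor methyltransferase, and cpp1 (1.28), a farnesyltransferase subunit.

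Genes for mating and cell fusion gave 8 up and 0 down of 15, with a median of 1.01. Next to dni2, dni1 and fus1 they included tht1 (2.18), which acts in nuclear fusion, prm1 (1.67), which acts in membrane fusion, and map4 (1.47). The type V myosin gene myo51 was at 1.01, whereas myo52 was at -0.87. Genes that move the nucleus in meiotic prophase were also high: 11 of 24 dynein and nuclear movement genes were up and 1 down, with a median of 0.92. The dynein heavy chain gene dhc1 had spots of 2.32 and 3.66, the intermediate chain gene dic1 was at 2.27, the light intermediate chain gene dli1 at 2.15, the dynactin gene ssm4 at 1.81, and bqt1, which gathers telomeres in the bouquet, at 2.32. The light chain gene dlc1 (-0.90) and the kinesin gene klp3 (-1.15) were on the other side of 0.

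Meiotic genes were already represented at 2 h. Of 32 recombination genes 14 were up and 1 down, with a median of 0.89. Next to rec25 these were led by rec10 (2.73), the main linear element gene, mek1 (2.58), a meiotic checkpoint kinase gene, and dmc1 (2.26), which encodes a strand exchange protein, while rec15, a partner of the break-forming machinery, was at -1.38 and rec8, the meiotic cohesin gene, at 0.00. Of 24 regulators of meiotic entry 7 were up and 3 down, with a median of 0.29. With 9.56% of all genes up and 10.8% down, the 3 down are values of single genes and not a result about the list. Here rep1 (2.89), mei2 (2.40), the RNA-binding master regulator of meiosis, and mei4 (1.82), the forkhead factor of middle meiosis, were high, and atf21 (-1.33), rsv2 (-1.33) and mmi1 (-1.22), which removes meiotic transcripts in growing cells, were low. Spore formation genes gave 2 up and 3 down of 21 with a median of -0.12, not far from all genes.

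Of 26 genes of the G1/S transition, many of them targets of the MBF transcription factor, 13 were up, all 13 on every spot, and 0 down, with a median of 1.07. The largest ratios after rep1 were those of mik1 (2.60), a Cdc2 inhibitory kinase gene, psm3 (2.40), a cohesin subunit gene, and cnp1 (2.28), which encodes the centromeric histone. The MBF subunit gene cdc10 (spots 1.67 and 2.16), the ribonucleotide reductase gene cdc22 (1.56 and 1.54) and the G1/S cyclin gene cig2 (1.29 and 1.46) were also up. Of 23 replicative helicase and origin genes, in contrast, 1 was up and 2 down, 0 of them on every spot, with a median of 0.27. Of 9 core histone genes 1, pht1 (1.46), was up and 3 were down, with a median of -0.61. Of these 3, 0 were past 2-fold on every spot. The histone median was -0.88 on the first spot alone and -0.25 on the second. Histone genes and genes of ribosomal proteins have near-identical copies, so probes of these families may report a sum.

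Genes of protein turnover were shifted upward by less. Of 27 autophagy and vacuolar protease genes 10 were up and 1 down, 26 were above 0, and the median was 0.79. Here ams1 (2.37), a vacuolar mannosidase gene, isp6 (1.94), a vacuolar protease gene, and atg15 (1.67) led. Of 30 proteasome subunit genes only 2 were up and 1 down, but 26 were above 0, with a median of 0.55. Over all genes 2389 of 4632 were above 0.

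Lists of growth genes held more repressed than induced genes, although most repressed genes were in none of the lists. Of 91 ribosome biogenesis genes 36 were at least 2-fold down and 2 up, with a median of -0.75 and 78 below 0. The nucleolin gene gar2 had spots of -3.91 and -2.92, erb1 was at -2.98, nop4 at -2.94 and gar1, a pseudouridylation factor gene, at -2.83, while pwp1 (1.51) and rpa34 (1.84) were up. Of the 36, 18 had at least 2 spots that were all past 2-fold. The 114 cytosolic ribosomal protein genes themselves moved less, with 6 down, 4 up and a median of -0.21. At 4 h of M-factor 45 of 112 of these genes were down, with a median of -0.81, and at 6 h 11 of 114, with a median of -0.25. Over all genes 10.8% were down at 4 h and 8.31% at 6 h.

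Biosynthesis and uptake genes were low as well. Of 62 amino acid synthesis genes 22 were down and 1, trp3 (1.36), was up, with a median of -0.67. Examples are ilv1 (-2.37), hom3 (-2.34), the aspartate kinase gene, and gln1 (-1.90), the glutamine synthetase gene. Of 12 purine synthesis genes 6 were down and 0 up, with a median of -0.98, led by ade1 (-3.37) and gua2 (-2.28). Of 15 nitrogen source transporters and their regulators 7 were down, all on every spot, and 3 up. The amino acid transporter gene aat1 had spots of -3.79 and -4.93, cat1, for cationic amino acids, was at -3.10, fur4, the uracil permease gene, at -2.82, per1 at -2.37 and put4, the proline permease gene, at -2.27. The 3 on the other side were isp4 (1.71), an oligopeptide transporter gene, any1 (spots 1.96 and 1.04), an arrestin gene, and isp6, which is a protease rather than a transporter. Of 7 hexose transporter genes 1 was down, ght2, with spots of -3.35 and -3.04. With 10.8% of all genes down, this is a value of 1 gene and not a result about the list.

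**Figure D2:**
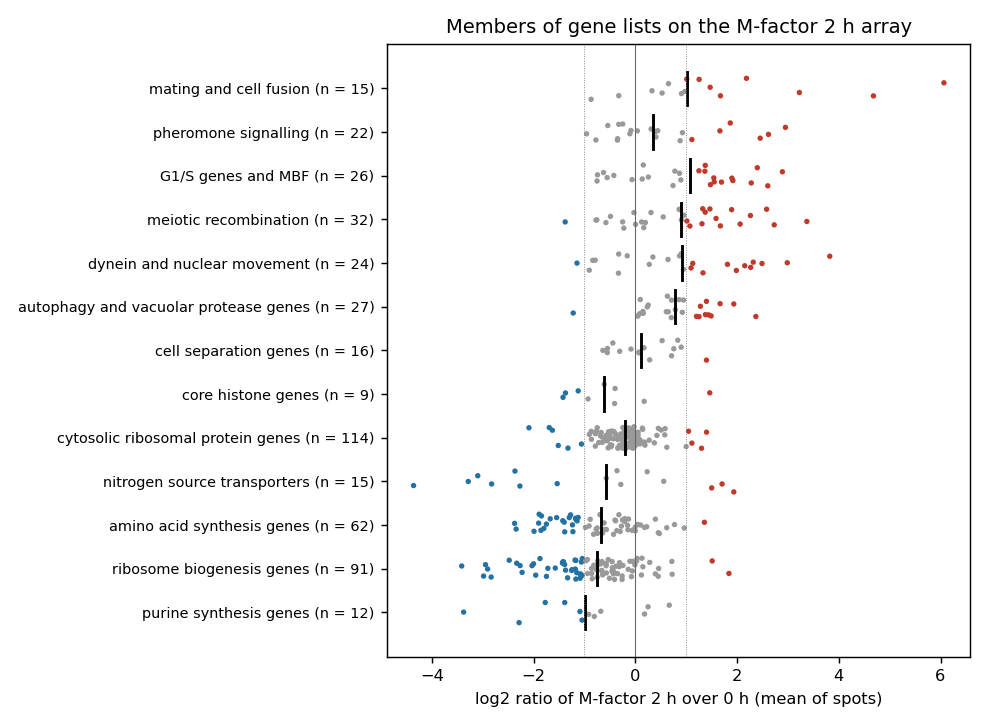
Log2 ratio of M-factor 2 h over 0 h (x axis, mean of spots) of each measured member of 13 gene lists; red points are at least 2-fold up, blue points at least 2-fold down, grey points neither, and the black bar is the median of the list. The medians run from 1.07 for G1/S genes to -0.98 for purine synthesis genes, and each list holds members on both sides of 0.

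The 15 lowest genes with every spot past 2-fold lay between -3.34 and -5.06 and were less reproducible than the highest. The lowest, opi10, had spots of -1.75 and -8.37. SPBC3B8.06 (-6.68 and -2.52), zpr1 (-6.33 and -2.69), a zinc finger protein gene, and acs1 (-6.35 and -2.66), the acetyl-CoA synthetase gene, each had spots more than 3 apart. All 4 genes were past 2-fold on each spot, but their size was not settled by the array. Closer spots were found for ani1 (-3.81 and -5.05), aat1, pfl8 (-3.42 and -4.03), a surface flocculin gene, gar2 and ade1 (-3.78 and -2.97). The others were SPBC8E4.03 (-3.90), SPCC297.05 (-3.83), nob1 (-3.74), which acts in ribosomal RNA maturation, SPAC8E11.10 (-3.61), nce103 (-3.54), the carbonic anhydrase gene, and zuo1 (-3.34), a ribosome-associated chaperone gene. SPCC297.05 was at 4.36 at 4 h and -1.98 at 6 h. The lowest value of the array, -7.56 for mrps17, came from 1 spot and had no value on the other time course arrays.

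The P-factor 2 h array asks whether M cells gave the same early response. It shares no reference RNA with the M-factor 2 h array and has the opposite dye order. On it only 2462 of 4129 genes had both spots, against 4407 of 4632 on the M-factor 2 h array. Many P-factor 2 h values used here therefore rest on 1 spot. Of 4122 genes with both values, 154 were at least 2-fold up on both, which is 38.9% of the 396 genes up with M-factor and 69.1% of the 223 up with P-factor. Down on both were 112, which is 25.4% of 441 and 56.0% of 200. The P-factor value had the same sign for 92.2% of the genes up and 88.9% of those down with M-factor, with medians of 0.81 and -0.63 against 1.32 and -1.37 with M-factor. Over all 4122 genes r was 0.656 and rho 0.627, as a description. Only urh1 (1.22 with M-factor on 1 spot, -1.09 with P-factor) and ani2 (1.06 and -1.28) were past 2-fold in opposite directions.

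The difference between the early responses was tested with limma across 4094 genes with values on all 6 time course arrays. The spread came from the 4 h and 6 h arrays of each course with 2 residual degrees of freedom, and the 2 h arrays were assumed to vary like them. By this fit 11 genes (0.269%) differed at an adjusted p of at most 0.05, 3 higher and 8 lower with M-factor. Higher were SPAC1565.03, by 4.95 ± 0.34 (SE, adjusted p = 0.00777 in limma), csr103, by 4.75 ± 0.37 (adjusted p = 0.0103 in limma), and map2, by 3.30 ± 0.43 (adjusted p = 0.0496 in limma). With P-factor their values were 0.52, 0.74 and -0.18, and on the array of treated M over P cells they were at -2.89, -3.07 and -3.12. Lowest relative to P-factor was chr4, at 0.77 with M-factor and 5.40 with P-factor. The P-factor value was that of 1 array, since chr4 was at 0.64 at 4 h and 0.41 at 6 h of P-factor. The others were SPBC3B8.06, zpr1, acs1, nop4, pby1, fur4 and nob1, all at -2.71 or lower with M-factor and between -1.08 and 0.15 with P-factor. Leaving out the P-factor 4 h or 6 h array left 1 call and none of these 11, and leaving out the M-factor 4 h or 6 h array gave 492; in each case the spread rested on a single pair of arrays, and the cause of the difference was not tested. With genes whose spots differed by more than 1 left out, 0 of 2415 were called and 339 had an unadjusted p of at most 0.05. Dye order, pheromone, mating type and the sxa2 genotype cannot be told apart in this contrast. At 4 h and 6 h treated RNA was in Cy3 in both courses. At those times SPAC1565.03 was at 5.67 and 5.31 with M-factor and at 0.98 and 0.93 with P-factor. For csr103 the values were 5.48 and 5.08 against 1.76 and 1.36, and for map2 3.08 and 3.28 against 0.92 and 0.14. The cause was not tested.

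**Figure D3:**
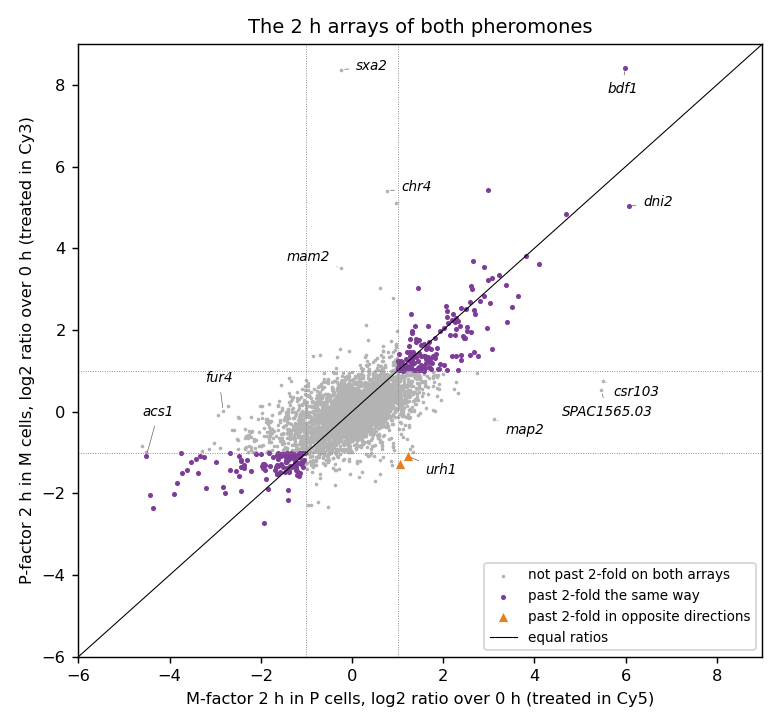
Log2 ratio over 0 h after 2 h of M-factor in P cells (x axis) against 2 h of P-factor in M cells (y axis) for 4122 genes; purple points are past 2-fold the same way on both arrays, orange triangles in opposite directions, grey points neither, and the line marks equal ratios. The M cell genes sxa2 and mam2 and the gene chr4 stand high on the y axis alone, and csr103, SPAC1565.03 and map2 high on the x axis alone. The sxa2 gene was inactivated in these M cells.

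Lists of growth genes had lower medians with M-factor than with P-factor at 2 h. Of 86 ribosome biogenesis genes with a P-factor value 8 were down, with a median of -0.38, where M-factor gave 36 of 91 and -0.75. Over all genes 4.89% were down with P-factor and 10.8% with M-factor. For purine genes the medians were -0.98 and -0.71, and for amino acid synthesis genes -0.67 and -0.41. These are values side by side without a test of the difference, and over all genes P-factor gave fewer genes past 2-fold.

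The later arrays of the same culture ask which parts of the response were specific in time. Against the mean of 4 h and 6 h the limma fit called 19 of 4094 genes (0.464%), 9 higher and 10 lower at 2 h, and all contrasts of this kind share the 0 h RNA. Several of the calls were genes of cell separation. The genes eng1, which encodes the glucanase that dissolves the septum, and adg1, and the chitin synthase regulator gene cfh4 were near 0 at 2 h and strongly down later. Of the 16 cell separation genes 0 were down at 2 h, with a median of 0.12. At 4 h 4 were down and 4 up, with a median of 0.26, and at 6 h 5 were down and 0 up, with a median of 0.34. The shares down were above those of all genes, 10.8% at 4 h and 8.31% at 6 h, while both medians were above 0. The low values were thus those of a part of the list. For eng1 the values were -0.44 at 2 h, -4.38 at 4 h and -4.28 at 6 h, a difference of 3.89 ± 0.30 (SE, adjusted p = 0.0104 in limma). For adg1 they were -0.64, -5.48 and -6.64, and for cfh4 -0.31, -3.87 and -3.99. The P-factor course gave -0.26, -2.48 and -2.88 for eng1, the same order of times. The gene adg2, named after its values were seen, was at 0.07, -0.58 and -4.22.

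Other genes near 0 at 2 h and lower later were slp1 (-0.01, -2.83 and -2.69), which encodes an activator of the anaphase-promoting complex and lies next to eng1 by locus tag, uds1 (0.14, -2.84 and -3.62), SPCC306.11 (0.03, -2.66 and -2.41) and sqs2 (0.08 from 1 spot, -3.75 and -3.23). The remaining calls of this direction, ani2 and rps1902, had spots of opposite sign at 2 h. The probes are double-stranded PCR products, which report both strands of a locus together.

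In the other direction hmg1, which encodes HMG-CoA reductase, had spots 0.02 apart with a mean of 1.19 at 2 h and ratios of 6.16 at 4 h and 8.25 at 6 h. The difference was -6.01 ± 0.74 (SE, adjusted p = 0.0319 in limma). Also still low relative to later times were rsm1 (2.23, 4.90 and 4.74) and the hexose transporter gene ght4 (0.13, 2.47 and 2.17). The other 7 were genes repressed more at 2 h than later. The amino acid permease gene per1 was at -2.37, 0.34 and 0.35, ght2 at -3.20, -1.26 and -1.06, ade1 at -3.37, -1.45 and -1.28, and zpr1, SPBC3B8.06, nob1 and acs1 belonged here as well. With P-factor per1 was at -1.30 at 2 h and -0.12 at 6 h, while ade1 was at -1.49 and -1.32. Of the 4094 genes 0 passed the test of the difference between the courses (lowest adjusted p = 0.196 in limma), with 257 at an unadjusted p of at most 0.05.

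**Figure D4:**
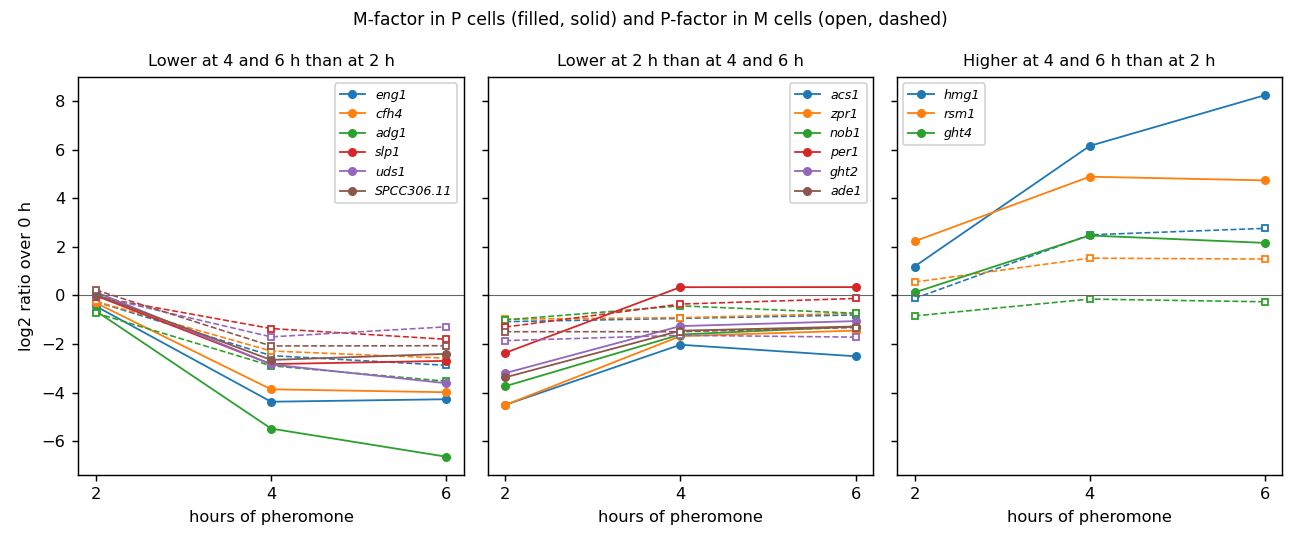
Log2 ratio over 0 h (y axis) against hours of pheromone (x axis) for 15 of the 19 genes called between 2 h and later times of M-factor; filled symbols and solid lines are M-factor in P cells, open symbols and dashed lines P-factor in M cells, and each point is 1 array. In the left panel the genes lie near 0 at 2 h and below 0 later with both pheromones, and in the right panel hmg1 is at 1.19 at 2 h and 8.25 at 6 h of M-factor.

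These calls were not stable to the arrays used. With either P-factor 4 h or 6 h array left out 0 genes were called, with 302 at an unadjusted p of at most 0.05, and with the M-factor 4 h or 6 h array left out 422 and 494 were. A fit to the M-factor arrays alone called 3 of 4616. The time of 2 h and the dye order of its array cannot be told apart within the M-factor course. The P-factor course had treated RNA in Cy3 at 2, 4 and 6 h. There eng1, adg1, cfh4, SPCC306.11, slp1 and uds1 also fell after 2 h. For example, cfh4 was at -0.25, -2.29 and -2.58, and SPCC306.11 at 0.22, -2.08 and -2.07. In contrast, sqs2 was at -0.91, -0.86 and -0.92, and ani2 (-1.28) and rps1902 (-1.52) were already low at 2 h of P-factor. The part of dye order in these calls was not tested.

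The opposite dye order gave a direct look at values that follow the dye. A gene that takes up Cy5 label better whatever the sample would lie on opposite sides of 0 on this array and on the 5 others. Of 929 genes at least 1.5-fold up at 2 h and measured on all 5 others, 15 were below 0 on each of them. Of 878 genes at least 1.5-fold down, 5 were above 0 on each. Such counts miss a dye effect smaller than the response of a gene. By a stricter rule, 0 of the 878 were at least 1.5-fold up on each other array. At least 1.5-fold down on each were 3 of the 929, ani2, ckk2 and rps1902. All 3 had a first spot above 4 and a negative second spot, which were 4.04 and -1.92 for ani2, 4.77 and -2.09 for ckk2 and 4.08 and -2.84 for rps1902. The second spot thus had the sign of the other arrays. None of the 3 was past 1.5-fold on the untreated array of M over P cells.

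Set against the 3 P-factor arrays, which have the opposite dye order and another reference, 334 of 395 induced genes (84.6%) were above 0 on all 3, 9 were below 0 on all 3, and 103 (26.1%) were at least 2-fold up on all 3. Over all 4096 genes with these values 33.6% were above 0 on all 3 and 3.22% were 2-fold up. Of 438 repressed genes 348 (79.5%) were below 0 on all 3, 18 above 0, and 67 (15.3%) were at least 2-fold down on all 3, against 36.3% and 2.32% of all genes. Most genes past 2-fold therefore kept their side when dyes and pheromone were exchanged, while their size was not tested by this. On the untreated array of M over P cells, which may share the untreated P cell RNA, 23 of the 443 induced genes (5.19%) and 15 of the 502 repressed genes (2.99%) differed at least 1.5-fold, against 2.46% of all genes.

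Position along the chromosome was also examined, by the order of genes in RefSeq. An adjacent gene was induced for 95 of 436 induced genes (21.8%), against 761 of all 4566 genes placed (16.7%), and an adjacent gene was repressed for 91 of 497 repressed genes (18.3%), against 19.0%. Among the highest genes, dni1 lay between rrg8 (2.51) and hem4 (2.11), bdf1 next to utp502 (2.08), and SPAC1565.03 next to ste4 (1.87). Other neighbours went the other way, such as inv1 (-1.86) on the other side of bdf1, SPBC557.05 (-2.01) next to csr103 and ski3 (-2.34) next to wtf25. Among the lowest, aat1 lay next to alr2 (-3.25), but ani1 lay next to rev1 (2.15) and nce103 next to mug45 (2.02). Signal from overlapping transcripts of adjacent genes cannot be separated by such probes.

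Many of the genes past 2-fold fell in none of the 34 lists examined. These lists covered 137 of the 443 induced and 129 of the 502 repressed genes, and 75 and 94 were known by a systematic name alone.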

How the data were processed

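RNA of treated and untreated cells was hybridised by the authors to arrays of PCR products, scanned, quantified with Imagene and lowess-normalised in GeneSpring. The authors deposited log ratios of channel 1 over channel 2. Those for M-factor at 2 h and 4 h were taken as log2, and those of the 6 other arrays as natural log and divided by ln of 2. The base is not stated in the sources used here: with the 2 h array as log2, 151 of 154 mean fold changes of the study's table were met within 2% or rounding, and with natural log 13. These counts varied the base of the M-factor 2 h array alone, and no such counts are given here for the P-factor arrays or the arrays of M over P cells. No intensities were used, so brightness over background is not known, and precision is limited by there being 1 array per condition. Of 11520 spots 9522 had 1 symbol, 134 several and 1864 none; only the first kind was named, 9442 by gene number. Spots were averaged per gene (4743 genes with 2, 9 with 4).

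Genes past 2-fold were counted without a test. Contrasts used lmFit and eBayes of limma 3.58.1 (R 4.3.3) with Benjamini-Hochberg adjustment over 4094 genes. The fit was tested on simulated data that held no change between 4 h and 6 h. Nothing in the labels gives separate cultures, and 4 h and 6 h are different times, not replicates. The p-values therefore rest on the spread between the 4 h and 6 h arrays of each course. That spread includes any change between these times. Python 3.11.15, numpy 2.4.6, pandas 2.3.3 and matplotlib 3.10.9 did the rest.

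The members, gene lists and rules were chosen with earlier results of these data known. Genes were named if among the 15 highest or lowest with every spot past 2-fold, the 4 largest of a list, the 6 largest calls each way per contrast, the 5 widest spot gaps, the 2 nearest each side of the threshold, or opposite on the 2 h arrays. Outside this rule, chosen after their values were seen, are further members of lists, marker and neighbour genes, the other limma calls, dbp3 and wwm3. The planned search of RefSeq promoters was replaced by the study's listed Ste11 sites.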

Additional observations from a re-analysis of the deposited data

Results flagged for a closer look

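The following genes differed by the limma test of the difference itself. Between 2 h of M-factor and the mean of 4 h and 6 h, the log2 differences were 5.43 for adg1, 3.89 for eng1, 3.62 for cfh4, 3.57 for sqs2, 3.37 for uds1 and 3.14 for ani2 (higher at 2 h), and -6.01 for hmg1, -2.95 for zpr1, -2.71 for per1, -2.63 for SPBC3B8.06, -2.59 for rsm1 and -2.30 for nob1 (lower at 2 h). Between 2 h of M-factor and 2 h of P-factor they were 4.95 for SPAC1565.03, 4.75 for csr103 and 3.30 for map2 (higher with M-factor), and -4.63 for chr4, -3.75 for SPBC3B8.06, -3.54 for zpr1, -3.43 for acs1, -2.87 for nop4 and -2.86 for pby1 (lower with M-factor). The spots of zpr1, SPBC3B8.06, nob1, acs1 and pby1 lay between 2.72 and 4.15 apart, those of ani2 5.97, and those of hmg1 0.02. No condition had more than 1 array, so no sample could be set apart from its group.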

How the results depend on the processing

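The number of genes at least 2-fold up at 2 h, 443, became 278 when every spot had to pass, 1052 at 1.5-fold, 127 at 3-fold and 832 if the array is read as natural log. The number down, 502, became 237, 992, 173 and 830 under the same settings, and 328 with spots more than 1 apart left out. Genes up with both pheromones, 154, became 410 at 1.5-fold and 51 at 3-fold; genes down with both, 112, became 403, 11 and, with every spot past 2-fold, 67. The 19 genes called against later times became 3 with M-factor arrays only, 98 with 4 h and 6 h as a replicate block, 4 with a trended robust fit, 9 with discordant spots left out and 265 as natural log. Leaving out 1 array gave between 0 (302 at an unadjusted p of at most 0.05) and 494. The 11 genes called against P-factor became 135 with the replicate block, 1 with the trended robust fit, 0 in limma with discordant spots left out (339 at an unadjusted p of at most 0.05) and 338 as natural log, and leaving out 1 array gave between 1 and 492. The block pairs times across courses and not cultures. Of 500 settings for 169 named genes 2 reversed, ani2 at -1.92 and ckk2 at -2.09 on the second spot alone, and 7 moved. Of 102 settings for 34 lists 3 moved. The cause of these changes was not tested beyond what each setting leaves out.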

Other observations

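The 8 genes with the widest gap between spots at 2 h mostly shared a side. The first spot was the higher one in 7 of the 8, and in dbp3 (4.05 and -3.26), rps1902, ckk2 and ani2 it was above 4 while the second spot was negative. The first spots of rps1902, ckk2 and ani2 carried the low spot numbers 157, 172 and 112, and that of dbp3 number 594. The others were opi10, wwm3 (2.37 and -4.16), SPBC3B8.06 and SPAC8E11.10. On the other time course arrays with a value dbp3 lay between -2.66 and -0.70. The cause of the high first spots was not tested.

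Single members stood far from their lists at 2 h. The cytochrome oxidase gene cox6 was at 3.02, with a list median of 0.28 over 46 respiratory chain genes, and the Hsp90 co-chaperone gene sti1 was at 2.97, with a median of 0.13 over 32 stress genes. With P-factor these genes were at 2.66 and 5.42. The frp1 gene, a ferric reductase gene, was at 2.32 on 1 spot, with a median of -0.25 over 20 iron and copper genes.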
